A study of Mus musculus with 6 samples.

Results

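G2 and mitosis genes were followed as a set of 34 genes whose products drive cells from the end of DNA replication through chromosome segregation and cell division. They were chosen by name, and all 34 were found among the 52636 genes of the count table, each with 1 gene ID. The RNA came from dissected forebrains of mouse embryos at E12.5 (days of embryonic development), from cells sorted for the surface protein Prominin1 and labelled as cortical radial glia. All embryos were Smad1wt/fl and Smad5wt/fl, that is, with 1 floxed copy of each gene, in mixed genetic backgrounds of CD1, 129/ola and C57BL6. The mutants, called SmadNes, were also Nestin:Cre+/0 and the controls Nestin:Cre0/0, so that Cre, which the Nestin promoter drives in neural progenitors, was present in the mutants only. Each genotype had 3 pools of sorted cells, and both genotypes use the pool names SF3, SF4 and SF5_6. Per the labels the 3 pairs were picked for the best RNA integrity, and the number of embryos in a pool is not stated there.

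Radial glia are the dividing stem cells that line the ventricles of the embryonic brain. Their nuclei move with the cell cycle and they divide at the ventricular surface, giving either more radial glia or, in neurogenic divisions, intermediate progenitors and neurons, and neurons no longer divide. Transcripts of G2 and mitosis genes build up late in the cycle and fall after division, so their level in a bulk sample depends on how many of its cells are cycling, on how many of these are in G2 or mitosis, and on the RNA made per cell. In bulk RNA, fewer cells of a type and less RNA per cell cannot be told apart. Repression of these genes outside their window runs through the DREAM complex, and their activation through B-MYB and FOXM1. DREAM and B-MYB complexes bind through the LIN54 subunit to a short element with the core TTTGAA, called the CHR, and NF-Y binds CCAAT boxes upstream of it.

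Start-site regions were available for 29 of the 34 genes, as RefSeq windows on GRCm38.p6 that run from 250 bases before to 50 bases after the start, and Aurkb, Ccna2, Dlgap5, Kif20a and Tpx2 had none. Both strands were searched for CCAAT, for TTTGAA and for the variant TTCGAA. The CCAAT box was found in 21 of the 29 windows (72.4%), against 38.8% of the 11434 windows of genes tested here. At least 2 copies stood in 16 windows (55.2%), against 14.8%. TTTGAA was found in 22 windows (75.9%), against 11.7%, and TTCGAA in 3 (10.3%), against 2.05%. A match describes letters in this window and is neither a site nor a cause. The bases before the start are printed for 6 genes, with matches to the 3 motifs on either strand in capitals, because these genes span the range from several motif copies to none and include the extremes of the pool comparison described further on. They lie at chr10:69352913-69353162 for Cdk1, chr13:100786487-100786736 for Ccnb1, chr9:70421555-70421804 for Ccnb2, chr4:118437344-118437593 for Cdc20, chr11:99024190-99024439 for Top2a and chr1:169531465-169531714 for Nuf2. All 6 genes are on the minus strand, and the letters run 5′ to 3′ on that strand and end at the base before the start.
Cdk1: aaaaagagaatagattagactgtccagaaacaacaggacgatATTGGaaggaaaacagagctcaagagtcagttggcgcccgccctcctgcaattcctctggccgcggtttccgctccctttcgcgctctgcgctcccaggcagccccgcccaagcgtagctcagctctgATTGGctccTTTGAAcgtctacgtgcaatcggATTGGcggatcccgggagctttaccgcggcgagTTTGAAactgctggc
Ccnb1: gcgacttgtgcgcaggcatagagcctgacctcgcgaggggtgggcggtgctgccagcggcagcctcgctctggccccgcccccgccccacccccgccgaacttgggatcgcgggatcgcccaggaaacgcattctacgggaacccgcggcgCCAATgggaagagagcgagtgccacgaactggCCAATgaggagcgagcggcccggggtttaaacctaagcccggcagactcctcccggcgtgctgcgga
Ccnb2: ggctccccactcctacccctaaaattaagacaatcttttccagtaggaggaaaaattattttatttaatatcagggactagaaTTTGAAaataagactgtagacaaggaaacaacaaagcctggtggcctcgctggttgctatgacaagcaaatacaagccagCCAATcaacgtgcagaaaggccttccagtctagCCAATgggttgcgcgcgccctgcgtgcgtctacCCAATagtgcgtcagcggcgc
Cdc20: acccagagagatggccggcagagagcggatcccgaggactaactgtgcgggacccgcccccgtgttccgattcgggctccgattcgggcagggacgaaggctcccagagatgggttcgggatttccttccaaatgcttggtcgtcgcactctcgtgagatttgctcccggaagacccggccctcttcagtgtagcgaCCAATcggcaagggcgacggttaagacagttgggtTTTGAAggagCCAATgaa
Top2a: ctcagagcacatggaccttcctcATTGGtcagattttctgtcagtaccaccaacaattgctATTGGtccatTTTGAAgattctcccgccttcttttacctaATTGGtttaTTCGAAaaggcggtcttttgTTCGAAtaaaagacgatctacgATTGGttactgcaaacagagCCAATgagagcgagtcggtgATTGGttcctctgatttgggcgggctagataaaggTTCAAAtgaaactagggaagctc
Nuf2: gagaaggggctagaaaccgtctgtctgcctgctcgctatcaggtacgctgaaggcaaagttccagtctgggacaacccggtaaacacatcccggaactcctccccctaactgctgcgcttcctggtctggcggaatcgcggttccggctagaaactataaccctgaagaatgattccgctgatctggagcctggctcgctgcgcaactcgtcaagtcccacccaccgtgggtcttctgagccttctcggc
In Ccnb1 the CCAAT copies begin at positions -99 and -67 from the start. In Ccnb2 they begin at -87, -54 and -21, and TTTGAA stands at -167 and again at 5. In Cdk1 TTTGAA begins at -71 and -15. Cdc20 has CCAAT at -53 and -8 with TTTGAA between them at -18. Top2a has 6 CCAAT matches and also holds TTCGAA at -140 and -120. None of the 3 motifs was found in the window of Nuf2, and this says nothing about the factors that may act there. In Plk1, Aurka, Cenpf and Hmmr TTTGAA lies after the start, at positions 31, 33, 3 and 9.

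The libraries held between 32997423 and 40744672 expected counts. Each of the 34 genes had at least 826 counts in every library, so counting error was at most 3.48% of a value, and all 34 passed the filter on low counts that left 16869 genes. Smad1 and Smad5 did not check the deletion, since a whole-gene count covers floxed and other exons: Smad5 stood at 287 to 299.9 CPM (counts per 1000000, scaled by the TMM method) in controls and at 373 to 411 CPM in the libraries labelled SmadNes, and Smad1 at 72.8 to 77.8 and 85.7 to 92.9 CPM. Smad5 had an edgeR adjusted p of 0.965 between genotypes, and of 0.00757 with the pool name as a block, where it was called higher in SmadNes. Smad1 was called in neither fit (adjusted p 1 and 0.257). Directions given here rest on the labels. Prom1, used for the sort, had 106 and 110.0 CPM in control and SmadNes SF3, 124 and 129 CPM in SF4, and 129 and 132 CPM in SF5_6. It followed the order of names that the 34 genes show below (edgeR adjusted p 0.00342 for the names), and its part in their differences was not tested. The radial glia markers Nes and Sox2, at 384 to 566 and 111 to 173 CPM, also differed among names (edgeR adjusted p 0.00404 and 0.00152). Both were lowest in SF3 and highest in SF5_6. Pax6 differed too (edgeR adjusted p 0.0323) but in another order. It was highest in SF4, at 150.4 and 147 CPM, against 128 and 134 CPM in SF3 and 129.6 and 137 CPM in SF5_6. Neuronal genes were also present, as the marker lists further on show.

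Together the 34 genes made up 0.3499% of the counts in control SF3, 0.393% in SmadNes SF3, 0.431% and 0.4199% in control and SmadNes SF4, and 0.474% and 0.496% in control and SmadNes SF5_6. The share was lowest in the SF3 pools and highest in the SF5_6 pools. Per length, taken as CPM per kilobase of all exon bases of a gene in GENCODE M21, levels in controls spanned a 17.6-fold range. Mki67, which coats mitotic chromosomes and is the common proliferation marker, was the most abundant at 74.9 ± 7.41 CPM per kb (SD, n = 3). Cdc20, the activator of the anaphase-promoting complex, followed at 56.3 ± 7.70 CPM per kb and Top2a, the topoisomerase that untangles sister chromatids, at 55.0 ± 8.21 CPM per kb, and these neighbours differed by less than their spread. Next came Ccna2 (cyclin A2) at 43.2 ± 5.35 CPM per kb and Tpx2, a spindle assembly factor, at 39.3 ± 4.83 CPM per kb. At the low end stood Anln (anillin, a scaffold of the contractile ring) at 5.39 ± 0.908 CPM per kb and Ndc80, which couples kinetochores to microtubules, at 4.24 ± 0.538 CPM per kb. Exon bases of all isoforms were counted, so genes with rarely used long isoforms read low on this scale. The 34 genes lie on 15 chromosomes, with at most 6 on 1 of them (chromosome 2).

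**Figure D1:**
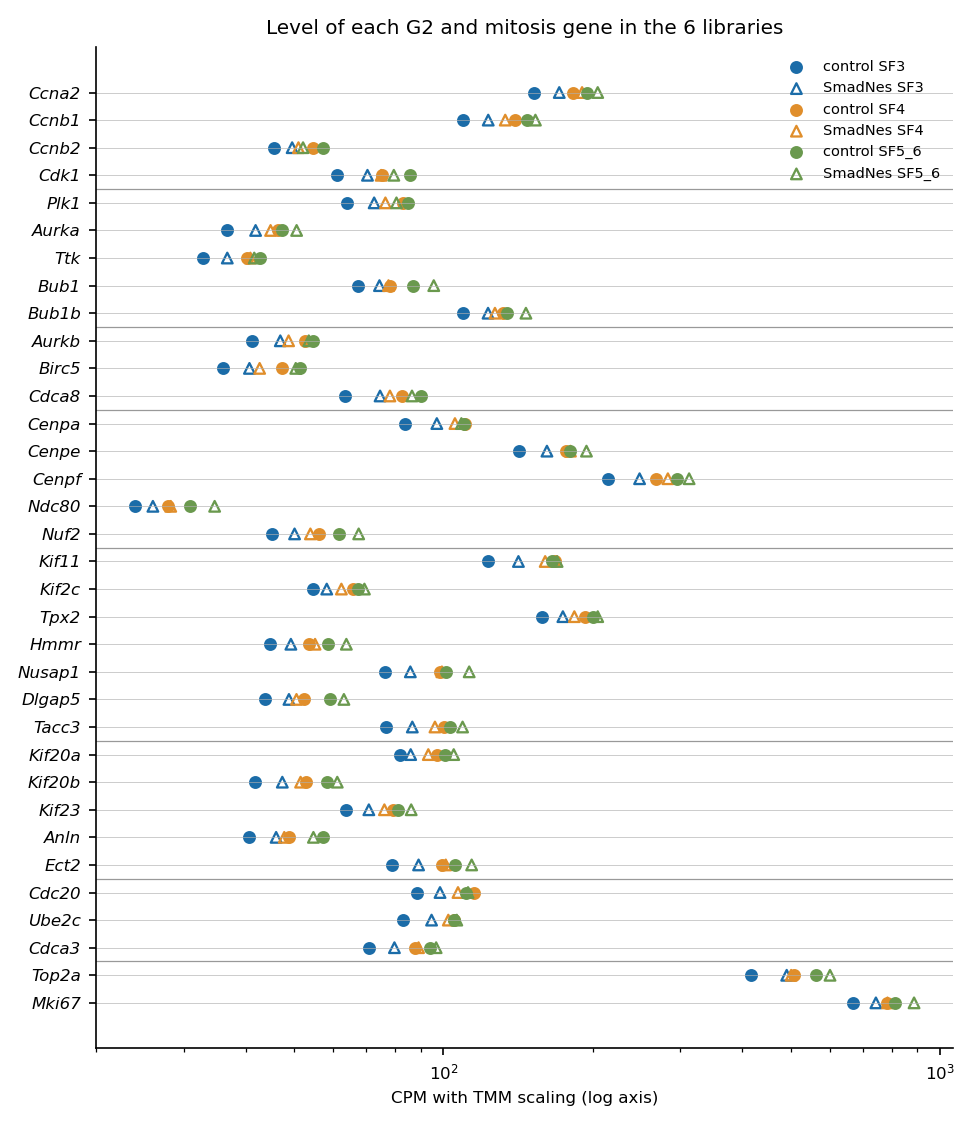
CPM with TMM scaling (horizontal log axis) of each of the 34 genes (rows, grouped by role between grey lines) in the 6 libraries. Filled circles are controls, open triangles SmadNes, and colours the pool names. The control SF3 pool is the leftmost point in all 34 rows.

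These genes were lowest in the SF3 pools and highest in the SF5_6 pools. Expression of 33 of the 34 genes differed among SF3, SF4 and SF5_6 in edgeR's quasi-likelihood F test of the name terms beside genotype (Benjamini-Hochberg adjusted p between 0.0011 and 0.0378, 2 libraries per name). Over all genes tested, 28.8% were called in that test. All 33 had their lowest name mean in SF3 and their highest in SF5_6, a call made for 6.97% of all genes. The median gene was 1.26-fold higher in SF5_6 than in SF3 (log2 difference 0.34) and 1.16-fold higher in SF4 than in SF3 (0.22), while the medians over all genes tested were 0.0028 and 0.0011 on the log2 scale. The genes are transcribed together in the same cells, so the 33 calls are not 33 independent observations.

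Both SF5_6 libraries lay above both SF3 libraries for 34 of the 34 genes, against 32.3% of all genes, and both SF4 libraries lay above both SF3 libraries for 34, against 23.2%. Both SF5_6 libraries lay above both SF4 libraries for 28 genes, against 32% of all genes. Control SF3 was the lowest of the 6 libraries for all 34 genes, against 22.6% of all genes. The highest library was SmadNes SF5_6 for 24 genes and control SF5_6 for 8. For the remaining pair of genes, Cenpa and Cdc20, it was control SF4. Within controls the median difference between SF5_6 and SF3 was 0.40 on the log2 scale, and within SmadNes it was 0.27. For SF4 minus SF3 the medians were 0.31 within controls and 0.11 within SmadNes, and whether the genotypes differ in these steps was not tested. The median of SF4 minus SF3 was 0.14 without control SF3 and 0.13 without control SF4. The labels do not say what a pool name stands for.

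Without the control SF3 library, 20 of the 34 genes were called among names, against 24.5% of all genes in the same fit, and the median difference between SF5_6 and SF3 was 0.25 on the log2 scale. DESeq2's likelihood ratio test with all libraries called 31, against 19.9% of all genes. The fit without control SF3 has 1 library for SF3, whose spread is assumed to be that of the others. The calls lost were those of Cdk1, Plk1, Aurka, Ttk, Bub1b, Aurkb, Cdca8, Cenpa, Kif2c, Tpx2, Kif23, Cdc20 and Ube2c.

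**Figure D2:**
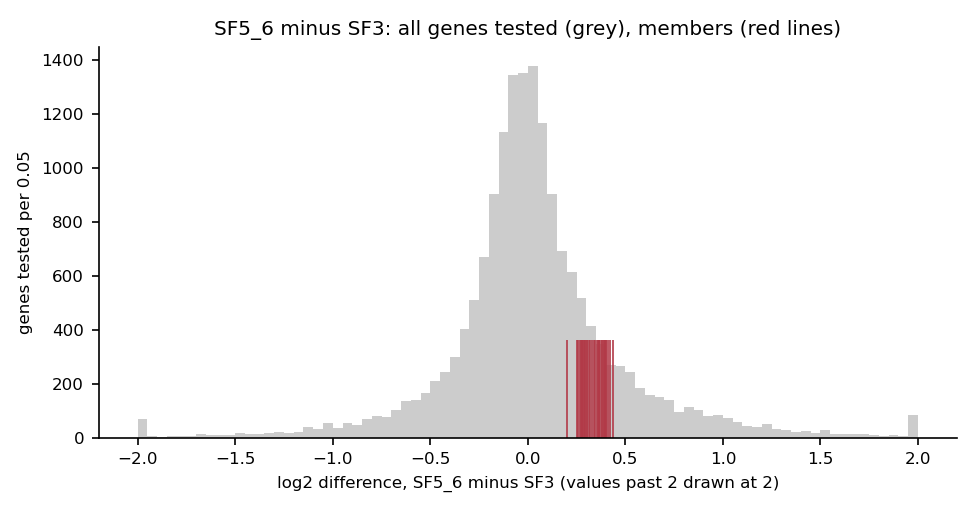
Histogram of the log2 difference SF5_6 minus SF3 over the 16869 genes tested (grey, bins of 0.05, vertical axis in genes) with a red line at the value of each of the 34 genes. The height of the red lines carries no value. All 34 lie above 0, between 0.20 (Ccnb2) and 0.44 (Nuf2).

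Among the cyclins and their kinase, which together drive entry into mitosis, Ccna2 (cyclin A2) stood at 152 and 171 CPM in the control and SmadNes pools of SF3, at 182 and 190.2 CPM in SF4, and at 195 and 204 CPM in SF5_6. Each step from name to name was upward, and the name test gave an adjusted p of 0.00323 (edgeR). Ccnb1 (cyclin B1) stood at 109 and 123 CPM in SF3, 139 and 133 CPM in SF4, and 148 and 153 CPM in SF5_6, a log2 difference of 0.37 (SE 0.0578) between SF5_6 and SF3. Its genotypes overlapped and its names followed the same order. Cdk1, the mitotic kinase itself, stood at 61.0 and 70.3 CPM in SF3, 75.2 and 74.9 CPM in SF4, and 85.6 and 79.5 CPM in SF5_6 (adjusted p 0.0206, edgeR).

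Ccnb2 (cyclin B2, GRCm38 chromosome 9, 70407692 to 70421547) was the gene that did not pass the name test, and it is singled out here after its values were seen. It stood at 45.6 and 49.6 CPM in SF3, 54.6 and 51.1 CPM in SF4, and 57.4 and 52.2 CPM in SF5_6. Its log2 difference between SF5_6 and SF3 was 0.20 (SE 0.0693, edgeR adjusted p 0.116 for the names), the smallest of the 34. The SmadNes pools of Ccnb2 lay within 49.6 to 52.2 CPM, a narrower range than its controls.

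Of the mitotic and spindle checkpoint kinases, all 5 were called among names. Plk1, the Polo-like kinase of mitotic entry and spindle formation, stood at 64.1 and 72.5 CPM in SF3, 83.1 and 76.4 CPM in SF4, and 85.0 and 80.4 CPM in SF5_6. Its adjusted p of 0.0378 (edgeR) was the largest among the 33 called genes. Aurka (Aurora A, the centrosomal kinase) stood at 36.7 and 41.9 CPM in SF3, 46.5 and 44.9 CPM in SF4, and 47.3 and 50.6 CPM in SF5_6. Bub1, a checkpoint kinase at kinetochores, stood at 67.3 and 74.4 CPM in SF3, 78.0 and 77.5 CPM in SF4, and 87.0 and 95.6 CPM in SF5_6. For Bub1 the step from SF3 to SF4 was small (log2 0.14, SE 0.0539) and SF5_6 stood apart (0.37, SE 0.0537, from SF3). Its partner Bub1b (BubR1) stood at 109 and 123 CPM in SF3, 132 and 127 CPM in SF4, and 134 and 147 CPM in SF5_6. Ttk (Mps1, the kinase that starts checkpoint signalling) ranged from 32.8 to 42.8 CPM.

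The chromosomal passenger complex corrects faulty attachments of chromosomes and later works at the cleavage site, and all 3 of its genes in the set were called among names. Aurkb (Aurora B, its kinase) stood at 41.2 and 46.9 CPM in SF3, 52.7 and 48.8 CPM in SF4, and 54.6 and 53.6 CPM in SF5_6. Birc5 (survivin) stood at 36.0 and 40.7 CPM in SF3, 47.3 and 42.7 CPM in SF4, and 51.4 and 50.4 CPM in SF5_6. Cdca8 (borealin) stood at 63.3 and 74.6 CPM in SF3, 82.4 and 78.0 CPM in SF4, and 90.1 and 86.5 CPM in SF5_6. In all 3 genes SmadNes lay above control in SF3 and below it in SF4 and SF5_6. Birc5 had the largest SF5_6 to SF3 fold of the 3, at 1.33.

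At centromeres and kinetochores, which join chromosomes to the spindle, all 5 genes were called among names. Cenpf (GRCm38 chromosome 1, 189640606 to 189688086), a large coiled-coil protein of the outer kinetochore, had the smallest adjusted p of the 34 in that test, at 0.0011 (edgeR). It stood at 215 and 248 CPM in SF3, 268 and 283 CPM in SF4, and 295 and 312 CPM in SF5_6. Cenpe, the kinesin that moves chromosomes to the spindle equator, stood at 142 and 162 CPM in SF3, 176 and 180.2 CPM in SF4, and 179.5 and 194 CPM in SF5_6. In Cenpf and Cenpe SmadNes exceeded control in every pair, and the names still ran from SF3 to SF5_6. Nuf2, a subunit of the NDC80 complex, was picked after its values were seen because its difference between SF5_6 and SF3 was the largest of the 34 (log2 0.44, SE 0.0629). It stood at 45.2 and 50.2 CPM in SF3, 56.2 and 54.0 CPM in SF4, and 61.6 and 67.5 CPM in SF5_6. Ndc80 ranged from 23.9 to 34.6 CPM and Cenpa, the histone H3 variant that marks centromeres, from 83.8 to 111 CPM.

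All 7 spindle genes were called among names. Tpx2, which activates Aurora A on spindle microtubules, stood at 158 and 174 CPM in SF3, 193 and 184 CPM in SF4, and 200.2 and 204 CPM in SF5_6. Nusap1, which bundles spindle microtubules, stood at 76.3 and 85.8 CPM in SF3, 98.4 and 99.3 CPM in SF4, and 101 and 113 CPM in SF5_6. Hmmr, a spindle pole protein, stood at 44.7 and 49.3 CPM in SF3, 53.7 and 55.2 CPM in SF4, and 58.5 and 63.8 CPM in SF5_6. Nusap1 and Hmmr, like all 34 genes, were lowest in SF3 whichever genotype is read, and their adjusted p for the names was 0.00162 and 0.0026 (edgeR). The motor Kif11, which pushes spindle poles apart, ranged from 123 to 169 CPM, and had the largest log2 difference between SF4 and SF3 of the 34 (0.31, SE 0.0621). The microtubule depolymerase Kif2c (54.6 to 69.3 CPM), Dlgap5 (43.7 to 63.0 CPM) and the centrosomal and spindle protein Tacc3 (76.7 to 109 CPM) showed the same order of names.

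All 5 cytokinesis genes were also called among names. Ect2, the exchange factor that switches on RhoA at the cell equator, stood at 78.7 and 89.1 CPM in SF3, 99.3 and 101 CPM in SF4, and 106 and 114 CPM in SF5_6 (adjusted p 0.00172, edgeR). Of its companions, the central spindle kinesin Kif23 ranged from 63.5 to 86.1 CPM, Kif20a from 81.8 to 105 CPM, Kif20b from 41.8 to 61.1 CPM, and Anln from 40.7 to 57.1 CPM. Kif20b had the second largest fold between SF5_6 and SF3 of the 34, at 1.34.

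The 3 genes of ubiquitin-dependent control were called among names, with smaller folds in Ube2c and Cdc20. Cdc20 stood at 88.6 and 98.4 CPM in SF3, 115 and 107 CPM in SF4, and 111 and 112 CPM in SF5_6. Ube2c, the ubiquitin-conjugating enzyme of the anaphase-promoting complex, stood at 83.0 and 94.7 CPM in SF3, 105 and 102 CPM in SF4, and 105 and 106 CPM in SF5_6. In both, SF4 and SF5_6 lay close together above SF3, with folds of 1.19 each between SF5_6 and SF3. Cdca3, which promotes removal of the mitotic inhibitor Wee1, stood at 70.9 and 79.7 CPM in SF3, 87.6 and 89.1 CPM in SF4, and 93.9 and 96.7 CPM in SF5_6.

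Both genes of mitotic chromosome structure followed the names. Top2a stood at 416 and 491 CPM in SF3, 509 and 501 CPM in SF4, and 562 and 600.3 CPM in SF5_6 (adjusted p 0.00585, edgeR). Mki67 (GRCm38 chromosome 7, 135689784 to 135716361) stood at 669 and 743 CPM in SF3, 782 and 784 CPM in SF4, and 809.9 and 886 CPM in SF5_6 (adjusted p 0.00975, edgeR). Mki67 is the most abundant of the 34 genes and rose between SF3 and SF5_6 by 1.20-fold. Across the 34 genes the difference between SF5_6 and SF3 had a Spearman correlation of 0.36 with exon length, a description over genes that share the same libraries.

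Of 91 further G2 and mitosis genes, 63 were called among names, 62 of them higher in SF5_6 than in SF3 and 54 in the order SF3, SF4, SF5_6 (median log2 difference between SF5_6 and SF3 0.30). Without control SF3, 35 of the 91 were called. The smallest p-values belonged to Plk4, the kinase that starts centriole duplication, Smc2, a condensin subunit, and the spindle motor Kif15 (adjusted p 0.00116, 0.00119 and 0.00127, edgeR). Plk4 stood at 45.8 and 52.3 CPM in SF3, 54.1 and 55.3 CPM in SF4, and 66.3 and 68.9 CPM in SF5_6. Of 62 S phase genes, 35 were called, all 35 higher in SF5_6 than in SF3 (median 0.27), led by Uhrf1, which maintains DNA methylation at replication, at 158 and 175 CPM in SF3, 182 and 172 CPM in SF4, and 227 and 244 CPM in SF5_6. Among 27 transcriptional regulators of this program, 12 were called, 8 higher and 4 lower in SF5_6 than in SF3 (median 0.10). E2f7, a repressor of the E2F family, led them at 61.5 and 70.7 CPM in SF3, 87.3 and 91.1 CPM in SF4, and 118 and 100.3 CPM in SF5_6. Whether the 34 genes moved more than the S phase genes was not tested.

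Markers of cell types also moved with the pool names, and their part in the differences of the 34 genes was not tested. Of 24 radial glia genes, 18 were called among names, 12 higher and 6 lower in SF5_6 than in SF3 (median log2 difference 0.16). Their summed level was 4490 and 4887 CPM in control and SmadNes SF3, 5167 and 5404 CPM in SF4, and 5097 and 5198 CPM in SF5_6. Of 19 genes of intermediate progenitors 14 were called, 13 of them lower in SF5_6 (median -0.44), with summed levels of 3283 and 3277 CPM in SF3, 3363 and 3480 CPM in SF4, and 2572 and 2441 CPM in SF5_6. Eomes, the defining factor of these cells, stood at 622 and 612 CPM in SF3 against 397 and 392 CPM in SF5_6. Of 26 genes of cortical neurons 24 were called, 14 lower and 10 higher in SF5_6 (median -0.30), with summed levels of 9080 and 8584 CPM in SF3, 7870 and 8232 CPM in SF4, and 6531 and 6542 CPM in SF5_6. Neuronal sums were thus highest where the 34 genes were lowest.

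Other cell types ran in other orders. Ventral telencephalon genes (17 of 20 called, all 17 higher in SF5_6) summed to 202 to 262 CPM in SF3 and SF4 and to 560.4 and 436 CPM in control and SmadNes SF5_6. The 18 microglial genes were all called, and summed to 191 and 203 CPM in SF3, 32.8 and 30.3 CPM in SF4, and 133 and 154 CPM in SF5_6. Erythroid genes (11 of 12 called) summed to 118 and 124 CPM in SF4 and to 1130.0 and 672 CPM in SF5_6. Mesenchymal genes (18 of 19 called) summed to 533 to 1796 CPM over the libraries, and endothelial genes (3 of 10 called) to 22.6 to 31.6 CPM. These sums were lowest in SF4 for microglial, erythroid, endothelial and mesenchymal genes, whereas the 34 genes were lowest in SF3. The sums took every listed gene found, also those that the filter on low counts left out of the test. These were 21 ventral, 14 erythroid, 20 mesenchymal and 14 endothelial genes. No gene of these lists was at 0 in all libraries, and 2 ventral, 1 erythroid and 1 endothelial gene were at 0 in at least 1 library.

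**Figure D3:**
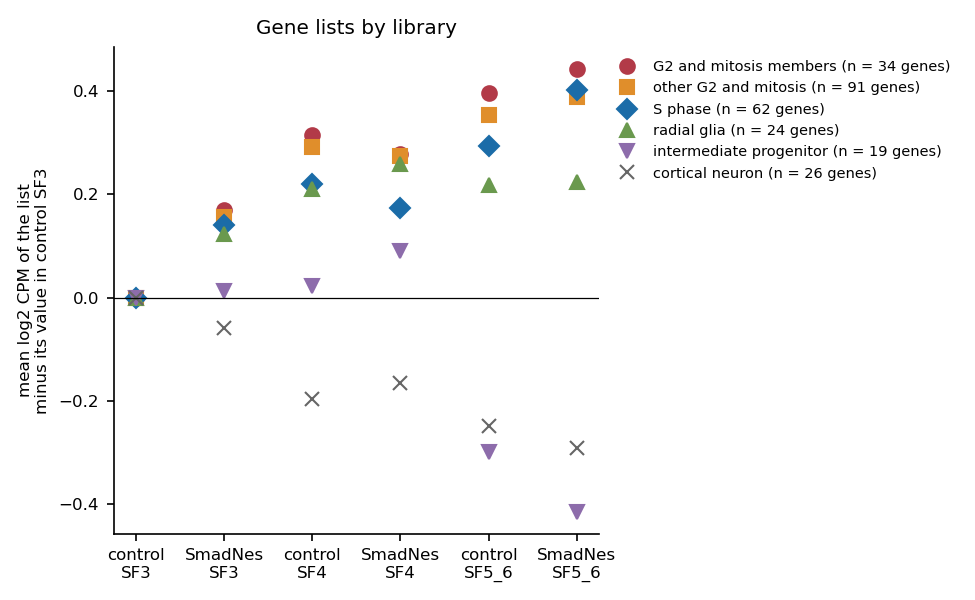
Mean log2 CPM of 6 gene lists in each library, minus the value of the same list in control SF3 (vertical axis, log2 units). The 34 G2 and mitosis genes (red) reach 0.44 in SmadNes SF5_6, where cortical neuron genes (crosses) stand at -0.29 and intermediate progenitor genes (purple) at -0.41.

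Between the genotypes no G2 or mitosis gene differed by edgeR's test. Of the 34 genes 0 were called, and 0 had an unadjusted p below 0.05, against 0% and 1.05% of all genes. The smallest unadjusted p was 0.374 (Cenpe). DESeq2 and limma-voom also called 0 of the 34, against 0.0415% and 0.00593% of all genes, and with the pool name as a block they called 0 again, against 0.0956% and 0.0474%. The median log2 difference, SmadNes minus control, was 0.06 (1.04-fold), against -0.0004 over all genes tested, and values ran from -0.04 (Ccnb2) to 0.12 (Cenpf). A value above 0 was found for 31 of the 34, against 49.8% of all genes. Cenpe averaged 166 ± 20.9 CPM in the controls against 179 ± 16.3 CPM in the mutants (SD over 3 pools), and its log2 difference of 0.11 (SE 0.112) had an edgeR adjusted p of 1. Ccnb1 averaged 132 ± 20.1 and 136 ± 15.3 CPM, and Mki67 754 ± 74.6 and 804 ± 74.0 CPM. For all 3 the difference was smaller than this SD, which also holds the differences among pool names. With the pool name as a block the log2 differences were 0.11 (SE 0.0399) for Cenpe, 0.05 (SE 0.0471) for Ccnb1 and 0.09 (SE 0.0396) for Mki67. In none of the 34 genes were the genotypes' libraries apart, against 2.39% of all genes with every SmadNes library higher and 2.38% with every one lower.

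The names pair the libraries, and a fit with the name as a block narrowed the intervals without adding a call. The median standard error of the 34 genes fell from 0.123 to 0.0486 on the log2 scale. In that fit the 95% intervals of the 34 genes lay within -0.17 (lower bound of Ccnb2) and 0.23 (upper bound of Ndc80). Without the block they reached from -0.37 (Birc5) to 0.45 (Nusap1). Ccna2, Cenpe, Cenpf, Hmmr, Nusap1, Ect2 and Mki67 had an unadjusted edgeR p below 0.05 with the block, all 7 higher in SmadNes. This was a share of 20.6%, against 2.78% of all genes (6.23% with both directions). The 7 genes were read in the same libraries, so they are not 7 independent observations. The count at that p, in either direction, was 0 without the SF3 pair, 13 without the SF4 pair, 2 without the SF5_6 pair, and 3 by DESeq2 with the block. The share of all genes at that p was not taken in these fits, so these counts cannot be read as particular to the 34. After adjustment the same fits called 10, 48, 149 and 13 of all genes, in that order, against 4 by edgeR with all pairs. The smallest edgeR adjusted p of the 34 genes with the block was 0.612 (Cenpf, log2 difference 0.12, SE 0.0385, higher in 3 of 3 pairs). The block called 0.0237% of all genes.

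**Figure D4:**
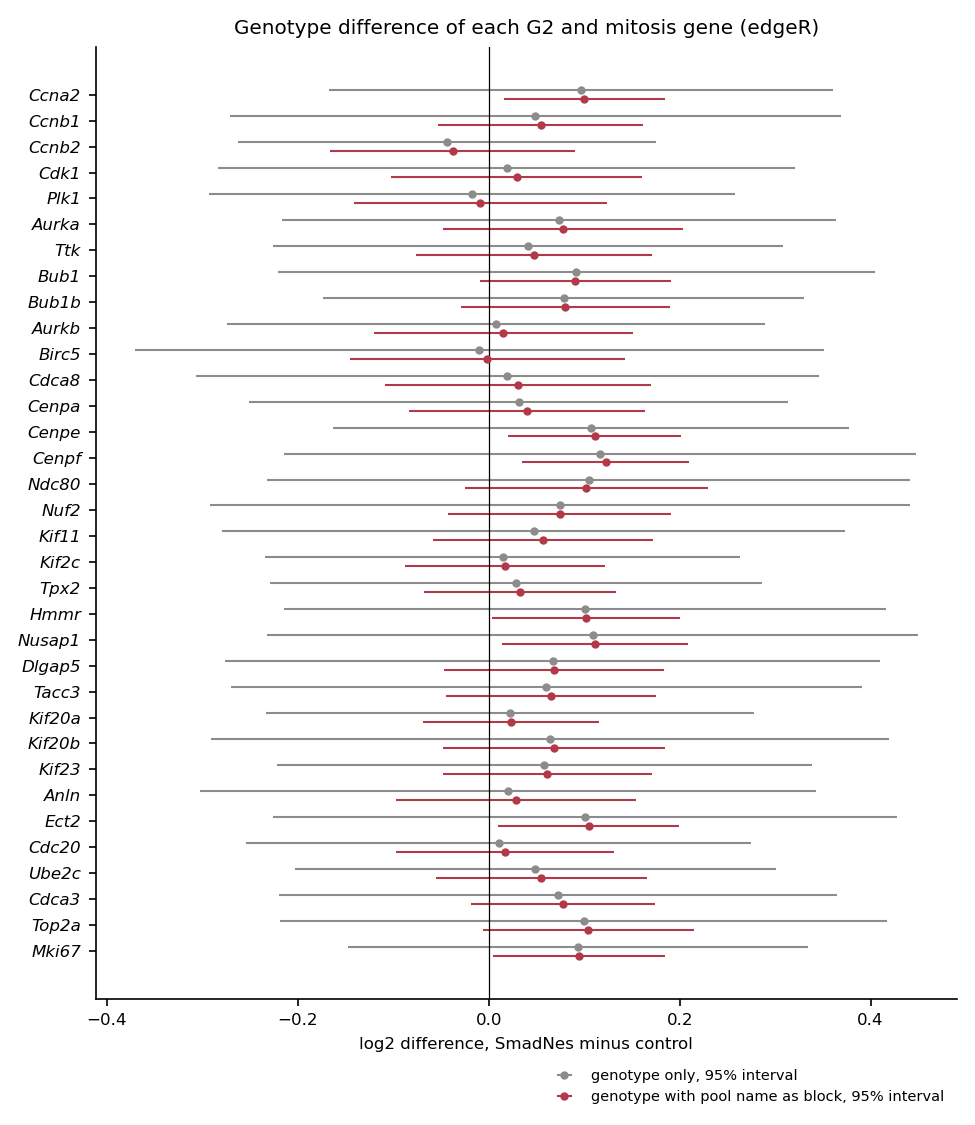
Log2 difference SmadNes minus control (horizontal axis) of each of the 34 genes by edgeR, with genotype only (grey) and with the pool name as a block (red). Points are estimates and bars 95% intervals. All grey bars cross 0, and the red bars reach from -0.17 to 0.23.

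The lean of the genotype difference was largest in the SF3 pair. SmadNes exceeded control for 34 of 34 genes in SF3 (median log2 difference 0.17), for 10 of 34 in SF4 (-0.05) and for 25 of 34 in SF5_6 (0.06), against 53%, 50% and 46.8% of all genes. Ccna2, Cenpe, Cenpf, Ndc80, Hmmr, Nusap1, Ect2, Cdca3 and Mki67 were higher in SmadNes in all 3 pairs, 9 of 34 (26.5%) against 13.8% of all genes, and 0 of 34 were lower in all 3, against 14.3%. Without control SF3, the lowest library for each of the 34 genes, the median genotype difference turned to -0.06 and 28 of the 34 genes were lower in SmadNes. That fit keeps SmadNes SF3 without its partner. Without SmadNes SF5_6 the median also turned, to -0.02, and 24 genes were lower in SmadNes and 10 higher. There control SF5_6 is kept without its partner. With the block and the whole SF3 pair left out, the median was 0.02, and 19 genes lay above and 15 below 0.

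**Figure D5:**
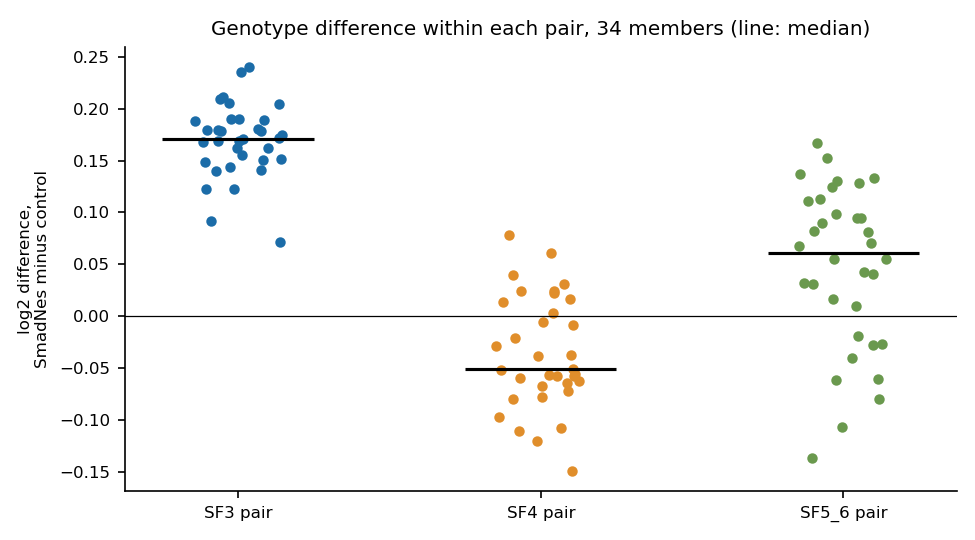
Log2 difference SmadNes minus control within each pair of libraries with the same pool name (vertical axis), with 1 point for each of the 34 genes and a line at the median. All points of SF3 lie above 0, and the medians are 0.17, -0.05 and 0.06 for SF3, SF4 and SF5_6.

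No gene of the wider lists was called between genotypes. Of the 91 further G2 and mitosis genes 0 were called between genotypes by edgeR with or without the block and 0 had an unadjusted p below 0.05 without it. With the block 11 of the 91 had one, against 6.23% of all genes, as did 5 of the 62 S phase genes and 9 of 26 cortical neuron genes. Without the block the 91 genes had 78 log2 differences above 0 (median 0.05, and 0.16, -0.02 and 0.04 within SF3, SF4 and SF5_6). The smallest unadjusted p among them was that of Cenph, a kinetochore subunit, at 12.4 and 15.6 CPM in SF3, 16.9 and 18.2 CPM in SF4, and 16.3 and 18.9 CPM in SF5_6 (log2 0.21, SE 0.142). Of the 62 S phase genes 0 were called and 58 had a value above 0 (median 0.08). Of the 27 regulators 0 were called and 16 had a value above 0 (median 0.0076). Over the same comparison, radial glia genes had a median of 0.04 and cortical neuron genes of -0.06, also with 0 called in each list. Ventral telencephalon genes leaned most, with a median of -0.58 (-0.66 with the block) and 0 called. Of the 20 tested, 1 had a value above 0 and 13 were lower in SmadNes in every pair. With the block 10 had an unadjusted p below 0.05 (edgeR). Erythroid genes had a median of -0.51 and mesenchymal genes of 0.16, with 0 called. The cause of these leans was not tested.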

How the data were processed

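RNA was measured by stranded paired-end mRNA sequencing of 6 libraries. Per the labels' protocols, the authors mapped reads to GRCm38 with STAR 2.5.3a and estimated expected counts with RSEM 1.3.0 on GENCODE M15, and the deposited table holds these as whole numbers. The submitters' processing notes also name DESeq2 1.18. RSEM shares ambiguous reads by estimation, so near-identical copies are uncertain. Totals were 32997423 to 40744672 per library.

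EdgeR 4.0.16 in R 4.3.3 (quasi-likelihood F test, TMM, filterByExpr) was fitted over all 16869 genes kept. The call threshold was 0.05 on the p-value after Benjamini-Hochberg adjustment. The main fit for SmadNes against control had genotype as the term. A second test took the pool name terms in a fit of genotype and name. Alternatives used limma 3.58.1, DESeq2 1.42.0, other scalings, no filter and leave-outs. The edgeR fits were also run on simulated data with noise set near that of the fit with the block, and no result here draws on that run. Standard errors follow from the F statistic. The labels do not say that pools are separate litters. In the fit with genotype alone, p-values rest on the spread between pools of a genotype. In the fits with the pool name, they rest on the spread left after genotype and name.

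Deviations from the group mean correlated at 0.451, 0.665 and 0.685 between libraries of 1 name and at most at -0.085 otherwise. A gene's deviations cancel out within a group, so the negative values partly follow from the positive ones. The labels speak of pairs of SmadNes and control samples. From these words and the positive correlations, the names were taken to pair the samples. Libraries of 1 genotype differed beyond sampling noise (chi-square per degree of freedom 10.6 to 43.9).

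All 34 genes are named. Values in every library are given for 14 preset genes, and in each role for the genes with the smallest p in either test. Members and lists were chosen with earlier results of these data known.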

Additional observations from a re-analysis of the deposited data

How the results depend on the processing

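Between genotypes, edgeR, DESeq2 and limma-voom called 0 of the 34 members and 0 of the 91 further genes under each setting run, with the replicate block included, and the block changed no call in these lists. Over all genes, calls ran from 0 in the main fit to 149 with the block and without the SF5_6 pair. With so few calls among all genes, 0 calls in these lists are not particular to them. The median log2 difference of the members, 0.06 as reported and 0.06 with the block, ran from -0.058 (without control SF3) to 0.13 when single libraries or pairs were left out. Signs turned for 31 members in at least 1 of the 9 leave-outs and never for Ccna2, Cenpe and Mki67. Without control SF3, however, Ccna2 fell to 0.0008 and Cenpe to 0.0059. The leave-out ranges of the 31, none of them called, were Ccnb1 -0.070 to 0.13, Ccnb2 -0.14 to 0.018, Cdk1 -0.10 to 0.13, Plk1 -0.14 to 0.049, Aurka -0.035 to 0.14, Ttk -0.063 to 0.11, Bub1 -0.028 to 0.18, Bub1b -0.0098 to 0.15, Aurkb -0.11 to 0.078, Birc5 -0.15 to 0.092, Cdca8 -0.11 to 0.12, Cenpa -0.089 to 0.096, Cenpf -0.0023 to 0.21, Ndc80 -0.023 to 0.19, Nuf2 -0.062 to 0.17, Kif11 -0.085 to 0.12, Kif2c -0.074 to 0.071, Tpx2 -0.069 to 0.088, Hmmr -0.0019 to 0.19, Nusap1 -0.0092 to 0.20, Dlgap5 -0.057 to 0.17, Tacc3 -0.062 to 0.14, Kif20a -0.063 to 0.087, Kif20b -0.060 to 0.16, Kif23 -0.044 to 0.12, Anln -0.096 to 0.14, Ect2 -0.015 to 0.19, Cdc20 -0.098 to 0.081, Ube2c -0.056 to 0.10, Cdca3 -0.036 to 0.15 and Top2a -0.012 to 0.19. With library totals alone, chosen after seeing the data, Aurkb (-0.0033) and Cdc20 (-0.0006) also turned. Among pool names, leave-outs gave 20 (without control SF3) to 34 members called and 35 to 69 further genes, against 33 and 63, while the share of all genes called ran from 19.7% to 29.1%, against 28.8%. The other settings gave 31 to 34 and 47 to 75. SF5_6 stayed above SF3 for all 34 members in all 374 values recomputed under the other settings and leave-outs. These values are refits of the same 6 libraries and not independent observations. Both SF5_6 libraries lay above both SF3 libraries for all 34 members, so leaving out 1 library could hardly turn a sign. Library totals alone moved the median of all genes between SF5_6 and SF3 to 0.066. Counting error was at most 3.48% of a member's value in a library, and precision is also limited by 3 pools per genotype and 2 per name. The cause was not tested.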
